A study of Mus musculus with 12 samples.

Results

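Skin samples from mice with a high skin disease score were compared with skin samples from mice with a low score. The model is cutaneous lupus erythematosus (CLE), an autoimmune disease of the skin in which lymphocytes and myeloid cells gather at the border of dermis and epidermis and interferon-induced genes are characteristically expressed. T cells from DO11 donors, whose transgenic receptor recognizes ovalbumin, had been skewed to the Th2 type in culture and injected into sublethally irradiated mice on the BALB/c background. In those recipients the promoter of the invariant chain drives a doxycycline-dependent transactivator in cells with MHC class II, and doxycycline food then induces a membrane-bound ovalbumin antigen in them. Of the 12 samples of the study, 6 came from skin and the other 6 were cultured T cells. The 6 skin samples were divided by the score given in their labels. Scores of 2 or more, the high side, belonged to mouse 3 (score 3) and mouse 6 (score 3) at their first lesions and to mouse 12 (score 2) at flare. Scores of 1 or less, the low side, belonged to mouse 1 at first lesions (score 1), mouse 1 at flare (score 1) and mouse 2 at flare (score 0.5). First lesions were sampled at about week 4 and flares at about week 12, after doxycycline had been withdrawn and given again. Mouse 12 was the only mouse of experiment 2. The 2 samples labelled mouse 1 may come from the same animal, which the labels do not settle, and neither the recipients' TLR9 genotype nor their sex is given in the labels for these samples. The p-values below measure only the spread between these 6 samples.

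RNA was counted with the NanoString nCounter mouse Immunology panel, in which a color-coded probe is counted for each RNA molecule it binds, without amplification. Of its 547 endogenous genes, 277 lay above the detection limit in at least 3 of the 6 skin samples and were tested. The limit was the mean of a sample's 8 negative control probes plus 2 SDs. Of the 277, 36 genes stood exactly at the minimum of 3 samples, 27 of them through the 3 high score samples alone, and 27 genes just outside it were above the limit in 2 samples, 19 of them in 2 high score samples. In total 205 genes were at or below the limit in all 6 samples. Values below are scaled counts, which are counts divided by a factor from 7 housekeeping genes, and are given in the order mouse 1 at first lesions, mouse 1 at flare and mouse 2 at flare for the low score, and mouse 3, mouse 6 and mouse 12 for the high score.

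The sides differed in depth without overlap. Endogenous counts summed to 27347, 25925 and 29279 in the low score samples and to 61513, 131229 and 55349 in the high score samples. The geometric mean of the housekeeping genes was 371, 349 and 403 counts at low score and 1745, 2287 and 838 counts at high score, a ratio of 4.00 (p = 0.10 by a two-sided exact permutation test, the smallest p that 3 against 3 samples can give). The single housekeeping genes differed by 2.38-fold (Gapdh, the only one whose sides overlapped) to 5.38-fold (Eef1g). Positive controls, which are added in a fixed amount, summed to 56875 to 133387 and to 76757 to 135552 counts and overlapped (exact permutation p = 0.40). Since unscaled negative controls were alike (means of 8.62 to 18.8 and 9.50 to 19.6 counts), dividing by the housekeeping factor placed the limit at 242, 135 and 159 scaled counts in the low score samples and at 35.7, 54.5 and 66.0 in the high score samples. The scaled negative control mean was therefore lower at high score by a log2 ratio of -1.84. Skin score and depth cannot be told apart in these 6 samples. Fewer cells and less RNA per cell cannot be told apart either.

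**Figure D1:**
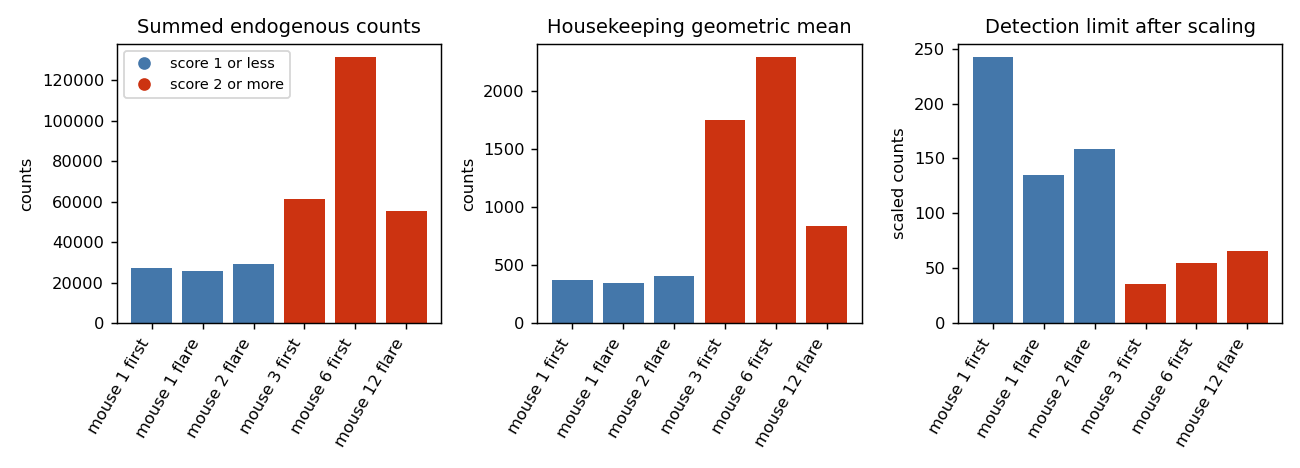
Summed endogenous counts, geometric mean of 7 housekeeping genes (both in counts) and detection limit in scaled counts for each of the 6 skin samples, with score 1 or less in blue and score 2 or more in red. Every high score sample had more counts and a lower scaled limit than every low score sample.

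The labels call these samples enriched T cells, but the genes that define T cells were at or near the limit. Cd3d, a chain of the T cell receptor complex, had 15 to 32 counts and was above the limit in 1 of 6 samples, and Cd3e, another chain, had 3 to 27 counts and was above it in 0 of 6. Cd247, the zeta chain, was above it in 2 of 6. In Th2 cultures Cd3d lay at 3888 to 5157 scaled counts and Cd3e at 1231 to 1584. Of 17 T cell identity genes on the panel, 8 were at or below the limit in all 6 skin samples. Of 22 myeloid marker genes, 12 were above it in all 6, among them Tyrobp, the signaling adaptor of myeloid receptors, and the summed level of all 22 was 14654, 8567 and 9976 scaled counts at low score and 4210, 8093 and 16523 at high score, against 665 to 1613 in Th2 cultures. MHC class II presentation genes summed to 29367, 20762 and 11849 at low score and to 5096, 12053 and 17297 at high score. Of 14 B cell markers, 10 were at or below the limit in all 6 samples, Ms4a1 among them, and 1 was above it in all 6. Of 14 cytotoxic and natural killer genes, 13 were at or below the limit in all 6 samples. These are therefore called skin samples here and not T cells. Mouse 3 had the lowest sum of myeloid markers and mouse 12 the highest, both on the high score side, and what this contributes to the differences below was not tested.

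No gene passed the test between high and low score. Of the 277 genes, 0 reached an adjusted p under 0.05 by edgeR's quasi-likelihood test (0%), and the smallest adjusted p was 0.126. At an unadjusted p under 0.05 there were 38 genes with lower and 1 gene with higher scaled counts at high score. This split depended on the scaling, with 14 lower and 8 higher by TMM and 6 lower and 11 higher after background subtraction (limma). Genes that entered the test through the high score samples alone were not set apart in these counts. DESeq2's Wald test passed 14 genes, all lower, and limma passed 0. Without the filter on low counts edgeR passed 81 genes, all lower, among them Mx1, Irf3, Ikzf2, Cd1d1, Ccl4, Ccrl2, Relb and Lif. The median standard error of a log2 fold change was 0.44. The fold changes of the whole table lay to the low side, with 240 of 277 negative and a median log2 fold change (high over low score) of -0.51. With TMM scaling the median was 0.01, with 138 negative and 139 positive, so each value below is to be read against the median of its own scaling. Among the 270 genes that were not tested, 205 of which were at or below the limit in all 6 samples, 266 had a lower mean log2 scaled count at high score, with a median log2 ratio of -1.40.

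The samples of the 2 sides did not overlap in 45 genes that were lower at high score (16.2% of those tested) and in 2 genes that were higher (0.722%). Of the 45 genes, 26 were not above the limit in all 6 samples. When the mean of the negative controls was subtracted before scaling, 9 genes were lower without overlap (3.25%) and 20 higher (7.22%). The 27 genes that entered the test through the high score samples alone were kept in these counts. How many of the 20 they make up was not counted, so the 20 are not read as a shift upward. The 9 lower genes were all among the 45, and both genes that were higher before were among the 20. The genes below are grouped by what they do. An adjusted p with no tool named, and a count of genes that passed, is from edgeR with housekeeping scaling, and DESeq2's adjusted p is given beside it where it was under 0.05.

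**Figure D2:**
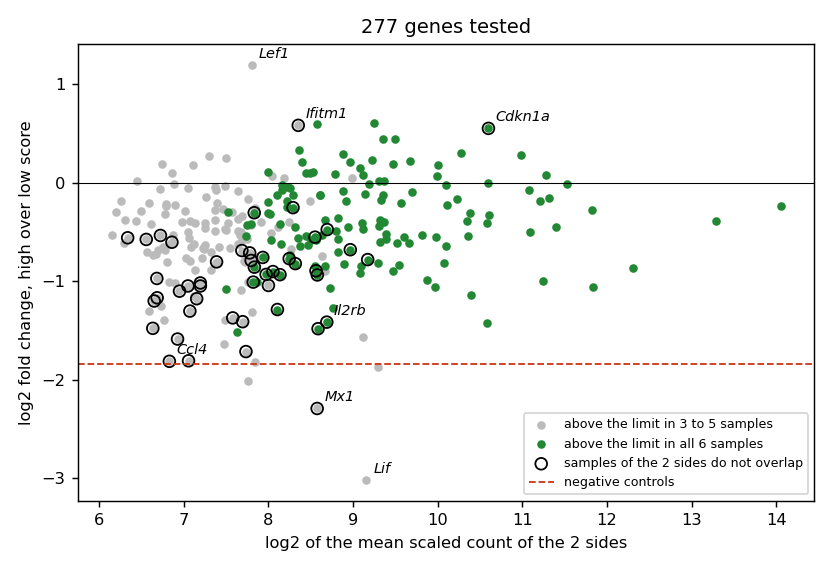
Log2 fold change (high over low score) against the log2 mean scaled count of both sides for the 277 genes tested, with green points above the limit in all 6 samples and circles where the sides do not overlap. The dashed line is the log2 ratio of the scaled negative control means, -1.84, which 4 of the 277 genes fall below, and genes of low level lie nearest to it.

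Type I interferons signal through the receptor chains Ifnar1 and Ifnar2 and induce a set of antiviral genes. One of these, Mx1, which encodes a GTPase, was at 552, 695 and 662 scaled counts at low score and at 95.8, 226 and 61.1 at high score. Its highest high score sample lay under the lowest low score sample, and in mouse 12 it was below the limit. The means were 636 ± 75.0 and 128 ± 87.1 (SD, n = 3 each), the log2 fold change was -2.29 ± 0.52 (SE), and the adjusted p was 0.126 by edgeR. Before scaling, Mx1 had 76, 90 and 99 counts against 62, 192 and 19, so in 2 of 3 high score samples it had fewer raw counts than in any low score sample despite their greater depth. The sides of Mx1 stayed apart after background subtraction, and its log2 fold change lay between -3.00 and -1.73 over all settings that compare the 2 sides. It passed in 3 of them, with DESeq2 (adjusted p = 0.000138), with all 12 samples in the edgeR fit (0.0482) and without the filter on low counts (0.0307).

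Ifitm1, a membrane protein that restricts virus entry, ran the other way. It was at 232, 224 and 328 at low score and at 332, 352 and 495 at high score, so the sides stood apart by only a few scaled counts. Its log2 fold change was 0.58 ± 0.38, with an adjusted p of 0.450 by edgeR. Ifih1, the cytosolic RNA sensor MDA5, was at 276, 386 and 221 and at 105, 174 and 209, a log2 fold change of -0.86 ± 0.42 (adjusted p = 0.396). These sides did not overlap, though they did after background subtraction. Ifi204, a DNA sensor of the same group, was at 276, 116 and 80.3 and at 38.6, 51.8 and 93.2, with overlap, and in low score samples it was above the limit in mouse 1 at first lesions alone. Of 10 type I interferon-stimulated genes on the panel 7 were tested and 0 passed, with a median log2 fold change of -0.66, against -0.51 over all genes (TMM -0.16 against 0.01). By count, 2 were lower and 1 was higher without overlap, where 16.2% and 0.722% of all genes tested were.

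Among factors and receptors of the pathway, Irf3, which switches on interferon genes, was at 247, 108 and 268 and at 43.3, 73.0 and 61.1, with a log2 fold change of -1.81 ± 0.42 (adjusted p = 0.126, 0.00371 by DESeq2), close to the -1.84 of the negative controls, and its sides overlapped after background subtraction. Irf5, a factor downstream of Toll-like receptors, was at 406, 84.9 and 134 and at 100, 160 and 215, and its sign depended on the setting. Ifnar2 was at 334, 247 and 341 and at 100, 221 and 225, and Ifngr1, a chain of the interferon-gamma receptor, was at 530, 625 and 696 and at 266, 497 and 392, both without overlap (log2 fold changes of -0.76 ± 0.43 and -0.68 ± 0.39). After background subtraction the sides of both genes overlapped. Of 12 interferon-gamma-inducible genes 7 were tested, 0 passed and 0 stood apart, with a median of -0.64 (TMM -0.17). Icam1, an adhesion molecule for leukocytes, was at 79.8, 201 and 147 and at 55.6, 93.1 and 96.5. Irf1, their transcription factor, was at 1125, 1544 and 1331 and at 460, 1185 and 913. Cxcl9, a chemokine that interferon-gamma induces, was at 443 in mouse 1 at first lesions and at 100 in both flare samples of the low side, against 81.9, 199 and 80.4. Ifng itself was at or below the limit in all 6 samples, with 6 to 21 counts, as were Tbx21, Il4, Il5 and Il28a, and no difference could be detected for them at this depth.

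**Figure D3:**
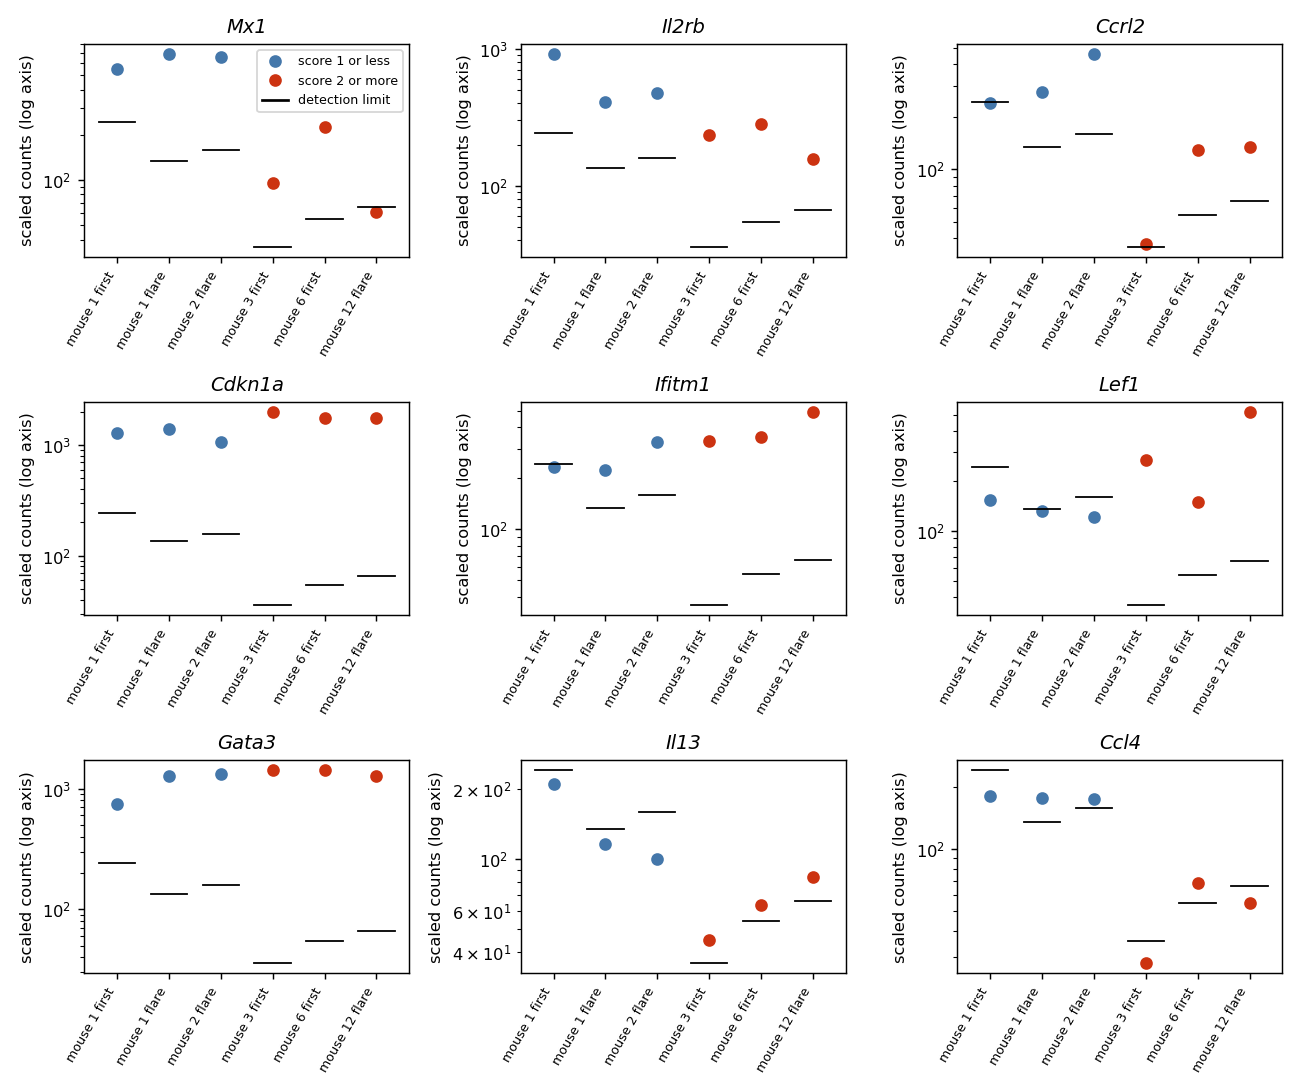
Scaled counts (log axes) of 9 genes in each of the 6 skin samples, blue for score 1 or less and red for score 2 or more, with a black line at each sample's detection limit. The high score samples of Mx1 lie under all low score samples while Cdkn1a and Ifitm1 lie above, and Il13 and Ccl4 follow the limit.

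Among lymphocyte genes, Il2rb, the beta chain of the interleukin-2 and interleukin-15 receptors, was lower at high score without overlap. It was at 922, 409 and 475 at low score and at 233, 283 and 158 at high score, above the limit in all 6 samples. The log2 fold change was -1.42 ± 0.45 (adjusted p = 0.280 by edgeR, 0.0199 by DESeq2), and the sides stayed apart after background subtraction. Ptprc, which encodes the pan-leukocyte antigen CD45 and was picked after its values were seen, was at 385, 548 and 763 and at 102, 158 and 354 (-1.48 ± 0.53, adjusted p = 0.281, 0.0360 by DESeq2). CD45 marks all leukocytes, and which cells its difference comes from was not tested. Cd2, an adhesion molecule of T and natural killer cells, was at 160, 185 and 241 and at 57.2, 83.7 and 154. Nfatc2, a factor that T cell receptor signals bring into the nucleus, was at 109, 425 and 274 and at 41.7, 78.9 and 145, with overlap (adjusted p = 0.0432 by DESeq2). Cd44, an adhesion receptor of activated T cells and many other cells, was nearly level, at 544, 525 and 682 and at 451, 709 and 579 (log2 fold change -0.01 ± 0.37). Of 16 T cell activation and checkpoint genes 13 were at or below the limit in all 6 samples, and Nfatc2 and Cd44 were the 2 that could be tested.

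Lef1, a transcription factor of naive T cells that hair follicle keratinocytes also use, was above the limit on the high side alone, where the scaled limits were lower. It was at 152, 131 and 120 at low score, in every case at or below the limit, and at 266, 150 and 521 at high score. Mouse 6 lay within the low score range, so the sides overlapped. Its value was also below the scaled limits of mouse 1 at first lesions and of mouse 2. The high score mean of 312, which mouse 12 raised most, was 1.75 times the low side's mean limit. Lef1 entered the test through the high score samples alone, so this value is a description and no test is given. Of 17 T cell identity genes 5 were tested, Lef1 among them, and 0 passed (median -0.14, TMM 0.41). Since Lef1 is included, these medians are a description as well.

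Of the helper T cell genes 0 passed. Gata3, the factor that directs Th2 cells and is also made by keratinocytes, was at 740, 1266 and 1331 at low score and at 1423, 1427 and 1276 at high score, so only mouse 1 at first lesions lay apart (log2 fold change 0.31 ± 0.40, adjusted p = 0.707). Il13, a Th2 cytokine, had 29, 15 and 15 counts at low score, all at or below the limit, and 29, 54 and 26 at high score, all above it. Scaled, these were 210, 116 and 100 against 44.8, 63.6 and 83.6, and since the low side gives only a limit no fold is reported. Il4ra, a chain of the interleukin-4 and interleukin-13 receptors, was at 319, 540 and 428 and at 154, 246 and 434. Of 17 Th2 genes 7 were tested and 0 passed (median -0.38, TMM 0.18), and of 18 Th1 genes 8 were tested and 0 passed (median -0.67, TMM -0.21). The 7 Th2 genes include Il13, which entered the test through the high score samples alone, so their medians are a description. Il18r1, a chain of the interleukin-18 receptor, was at 123, 116 and 181 and at 37.1, 73.0 and 73.9 (-1.20 ± 0.37). Batf, a partner factor in Th17 cells, was at or below the limit in all 3 low score samples (196, 123 and 87.0) and above it at high score (57.2, 100 and 96.5), which gives no fold. Ikzf2, which encodes the regulatory T cell factor Helios, was at 131, 201 and 107 and at 41.7, 49.5 and 67.5 (-1.48 ± 0.36, adjusted p = 0.126, 0.0141 by DESeq2). For Il18r1 and Ikzf2 the low score samples lay close to their limits, and after background subtraction the sides overlapped.

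Of 10 class II presentation genes on the panel, 6 were above the limit in all 6 samples and 3 were at or below it in all 6. Of 11 class I and immunoproteasome genes, 9 were above it in all 6 and 1 was at or below it in all 6. H2-Ea-ps, the class II E alpha gene, was at 5538, 6622 and 2589 at low score and at 1273, 2784 and 3019 at high score, with overlap (-1.06 ± 0.54, adjusted p = 0.396). H2-DMa, which helps load class II molecules, was at 530, 131 and 207 and at 72.6, 218 and 138. All 7 class II genes tested had negative fold changes with both the housekeeping and the TMM scaling, where 240 and 138 of all 277 genes did, and 0 passed (median -0.87, TMM -0.45), and 0 of 7 stood apart. In class I presentation, Psmb9, an immunoproteasome subunit, was at 653, 448 and 408 and at 199, 371 and 215 without overlap (-0.94 ± 0.41, adjusted p = 0.339). Its sides overlapped after background subtraction. H2-K1, a class I heavy chain, was at 719, 1466 and 1405 and at 553, 1304 and 598. The 10 class I and immunoproteasome genes tested had a median of -0.28 (TMM 0.25), and 0 passed. Cd1d1, which presents lipids to natural killer T cells, was at 131, 178 and 241 and at 47.9, 73.0 and 61.1 (-1.59 ± 0.36, adjusted p = 0.126, 0.00797 by DESeq2) and near the limit on both sides.

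Chemokine and innate genes included the smallest p of the table. Ccl4, a chemokine that draws monocytes and T cells, was at 181, 178 and 174 at low score and at 27.8, 68.3 and 54.7 at high score, a log2 fold change of -1.81 ± 0.38 (adjusted p = 0.126 by edgeR, 0.00275 by DESeq2). Its counts were 25, 23 and 26 against 18, 58 and 17, within or next to background in most samples, and its fold equalled that of the negative controls within its error. Ccrl2, a receptor that holds the chemoattractant chemerin, was at 240, 278 and 462 and at 37.1, 128 and 135 (-1.71 ± 0.54, adjusted p = 0.280, 0.0199 by DESeq2). Ccl4 and Ccrl2 stayed apart after background subtraction. Of 26 chemokines on the panel 17 were tested and 0 passed (median -0.57, TMM -0.15), and all 17 had negative fold changes with housekeeping scaling, against 11 with TMM, where 240 and 138 of all 277 genes did. Cxcr4, the receptor of Cxcl12, was at 203, 154 and 268 and at 75.7, 163 and 161, and of 19 chemokine receptors 12 were at or below the limit in all 6 samples. Of the skin homing genes, Itgb1, the integrin beta 1 chain, was at 755, 1636 and 1425 and at 831, 1334 and 1241. Tlr4, the receptor for endotoxin, was at 240, 154 and 201 and at 80.3, 113 and 93.2 (-1.05 ± 0.35), and Casp1, the inflammasome protease, was at 399, 309 and 281 and at 131, 177 and 212 (-0.93 ± 0.38). Both stood apart before and after background subtraction. Irak2, a kinase adaptor of Toll-like receptors, was at 152, 340 and 341 and at 60.2, 174 and 158. Il1rap, the shared chain of interleukin-1 family receptors, was at 145, 123 and 107, all at or below the limit, and at 72.6, 90.7 and 96.5, all above it. Tnf was at 145, 417 and 268 and at 66.4, 140 and 113, and Relb, a factor of the noncanonical NF-κB pathway, was at 240, 324 and 341 and at 71.1, 138 and 132 (-1.41 ± 0.41, adjusted p = 0.273, 0.0199 by DESeq2). Of 14 complement genes tested 0 passed and 0 stood apart (median -0.49, TMM -0.02), with Cfb, a protease of the alternative pathway, at 348, 185 and 201 and at 66.4, 88.4 and 199. Cfd, another protease of that pathway, was at 116, 262 and 80.3 and at 58.7, 106 and 57.9.

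Cdkn1a, which encodes the cell cycle inhibitor p21, was the other gene higher at high score without overlap. It was at 1299, 1397 and 1077 at low score and at 2007, 1754 and 1775 at high score, far above the limit in all 6 samples. The means were 1258 ± 164 and 1845 ± 140 (SD, n = 3 each), a log2 fold change of 0.55 ± 0.38 (adjusted p = 0.467 by edgeR). Its sides stayed apart after background subtraction and its log2 fold change was between 0.45 and 1.18 over the settings that compare the 2 sides. Bax, which promotes apoptosis, was at 174, 224 and 241 and at 97.3, 128 and 141 (-0.80 ± 0.36). Of 7 survival and apoptosis genes tested 0 passed (median -0.71, TMM -0.17). Xbp1, a factor of the unfolded protein response, was at 428, 1412 and 1887 and at 578, 815 and 489, and Tgfb3, a transforming growth factor, at 167, 1081 and 1238 and at 215, 397 and 225, both with the 2 flare samples of low score highest. Tgfb2 was at 94.4, 185 and 167 and at 43.3, 53.0 and 96.5. Among stromal, endothelial and epithelial markers, Cd34 was at 327, 502 and 281 and at 133, 217 and 231, and Pdgfb at 167, 201 and 141 and at 43.3, 114 and 77.2, both without overlap. Only 1 of these 2 genes stayed apart after background subtraction. Of the 8 markers tested 0 passed (median -0.64, TMM -0.17). Of the neutrophil genes, S100a8 and S100a9, 2 subunits of calprotectin, were highest in mouse 2 at flare (1967 and 863) and overlapped otherwise. The myeloid markers Fcgr4, an Fc receptor (523, 162 and 194 against 38.6, 101 and 174), and Cd36, a scavenger receptor (479, 309 and 361 against 136, 293 and 244), had adjusted p of 0.337 and 0.396. The dendritic cell markers Itgax and Cd83 and the B cell list members Cd24a and Blnk overlapped between the sides, with log2 fold changes of -1.15 ± 0.58, -0.83 ± 0.46, -0.90 ± 0.47 and -0.37 ± 0.42, and Cd24a is also made by epithelial cells.

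Within each course the score differences were not alike. First lesions set mice 3 and 6 against mouse 1, and flare set mouse 12 against mice 1 and 2, so each course held 1 lone sample and the flare contrast also crossed the 2 experiments. By mean log2 scaled counts (pseudocount 1), 121 genes were lower at high score in both courses and 19 were higher in both, while 90 were lower at first lesions and higher at flare and 47 the reverse. A score by course term, added after the data had been seen, passed in 9 of 277 genes by edgeR (adjusted p = 0.0410 to 0.0490), and in 0 when any 1 of the 4 samples that can be spared was left out. The 9 differences kept their sign in those fits of 5 samples, with C1qa at 2.85 to 3.87 and Clu at -4.71 to -3.47. It passed in 62 to 65 genes with the other scalings, in 4 with limma, and in 22 with limma after background subtraction. Course, experiment and the single mice cannot be told apart here.

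**Figure D4:**
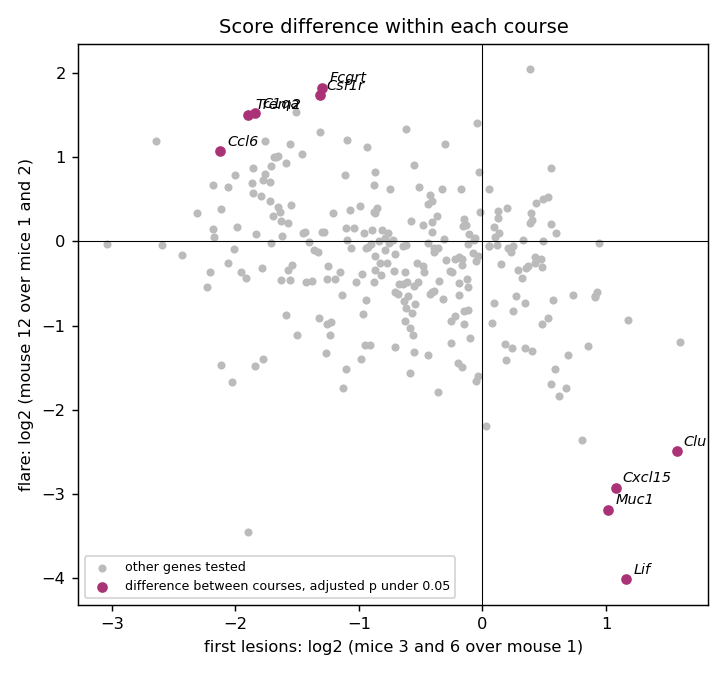
Log2 ratio of high over low score at first lesions (horizontal) and at flare (vertical) for the 277 genes tested, with the 9 genes whose ratios differed between courses at an adjusted p under 0.05 named. Of these, 5 lie at the upper left and 4 at the lower right. For Lif, Muc1 and Cxcl15 the low score sample at first lesions was below its limit, so their horizontal place is not known.

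In 5 of the 9 genes the ratio was higher at flare. Of the 16 myeloid markers tested, 3 were among the 9 genes, C1qa, Csf1r and Trem2. C1qa, a chain of the first complement component that tissue macrophages make, was at 2388 scaled counts in mouse 1 at first lesions against 468 and 948 in mice 3 and 6, and at 3209 in mouse 12 against 1065 and 1171 in mice 1 and 2 at flare. Csf1r, the receptor that macrophages need to survive, was at 595, 556 and 502 at low score and at 170, 333 and 1759 at high score. Trem2, a lipid-sensing receptor of macrophages, was at 457, 185 and 268 and at 81.9, 181 and 633. Fcgrt, the neonatal Fc receptor, and Ccl6, a myeloid chemokine, had the same shape. The log2 ratio of these 5 genes was 2.97 to 3.27 higher at flare than at first lesions. Mouse 12 alone carried the high values on the high score side. Cd163, a scavenger receptor of macrophages picked after its values were seen, was at 1299 in mouse 12 and at 369 to 531 in the other 5 samples. The score by course term of Cd163 did not pass (1.43, adjusted p = 0.301 by edgeR). Among the myeloid markers tested the term was negative for Cd14 alone (-2.50, adjusted p = 0.143 by edgeR). The summed myeloid markers, which include C1qa, Csf1r and Trem2, were at 16523 in mouse 12 and 14654 in mouse 1 at first lesions. The sum is therefore not separate from these 3 genes.

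Lif, a cytokine of the interleukin-6 family, ran in the opposite direction with Muc1, an epithelial mucin, Cxcl15, an epithelial chemokine of mouse lung, and Clu, the chaperone clusterin. Lif was at 50.8 in mouse 1 at first lesions, below the limit, at 1829 and 1178 in mice 1 and 2 at flare, and at 58.7, 224 and 90.0 in the high score samples. Muc1 was at 131, 1304 and 1532 at low score and at 137, 514 and 154 at high score, and Cxcl15 was at 43.5, 563 and 435 and at 75.7, 114 and 64.3. Clu was at 298, 2586 and 3820 and at 576, 1364 and 559. In each of the 4 genes the 2 flare samples of the low side were above all others. In mouse 1 at first lesions Lif, Muc1 and Cxcl15 were below the limit of 242, so their place under or over the high score samples is not known, while Clu was above the limit and lowest there. The log2 ratio of Clu changed by -4.22 from first lesions to flare. For the other 3 genes the ratio at first lesions is taken over a value that was not above background, so its size is not given here. Without mouse 1 at first lesions, Lif (log2 fold change -3.58) and Cxcl15 (-2.54) passed the test of high against low score (both adjusted p = 0.0457 by edgeR), and no other gene did. With all 6 samples Cxcl15 passed by DESeq2 (adjusted p = 0.0199).

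**Figure D5:**
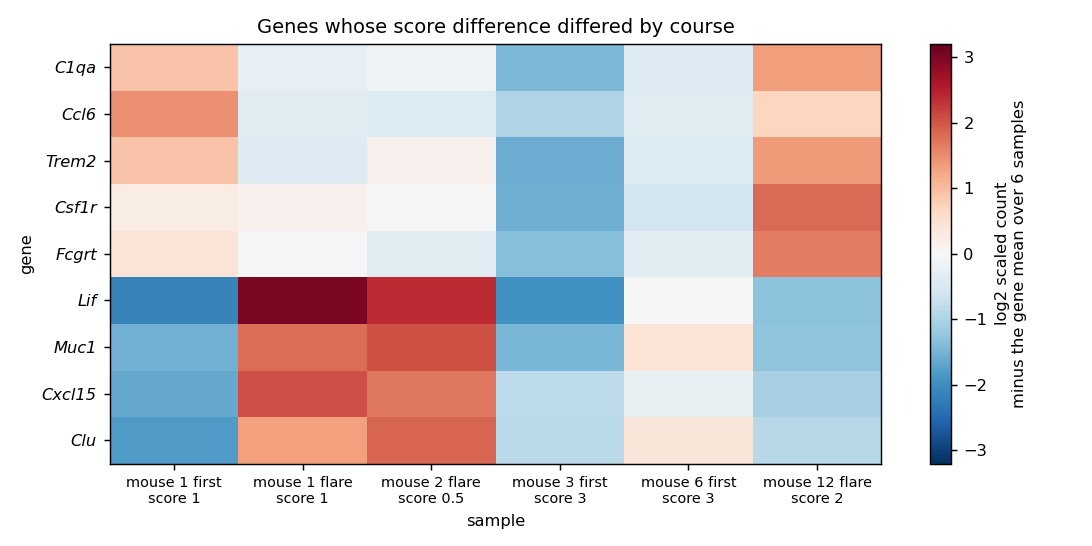
Log2 scaled counts of the 9 genes whose score difference differed between courses, minus each gene's mean over the 6 skin samples, with red above and blue below the mean. Mouse 12 and mouse 1 at first lesions are highest in the upper 5 genes, and the 2 flare samples of low score are highest in the lower 4.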

How the data were processed

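The 6 skin samples and the 6 cultures were assayed with the NanoString mouse Immunology panel after about 18 h of hybridization. The authors deposited raw counts per probe for 547 endogenous genes, 14 housekeeping genes, 6 positive and 8 negative controls, and no step applied after the instrument is given in the sources used here. The study's own analysis used Rosalind software. Here each sample's counts were divided by a factor from 7 housekeeping genes (geometric mean, relative to all 12 samples), those that exceeded the limit in every sample. Genes above the limit in at least 3 skin samples were tested on the counts with edgeR 4.0.16 in R 4.3.3 (quasi-likelihood test, scaling factor as offset, Benjamini-Hochberg over all 277 genes, threshold 0.05), 3 against 3 samples. Standard errors were derived from the fold change and its F statistic. Where all samples of a side were at or below the limit, a fold is the other side's mean over the mean of that side's scaled limits. Alternatives used limma 3.58.1 and DESeq2 1.42.0, 3 further scalings, other filters, background subtraction (floor of 1 count) and each sample left out.

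The members and gene lists were chosen with earlier results of these data known. Named genes were, apart from some that are not reported here, the genes of smallest p without overlap in each direction (10 lower, and the only 2 higher), those the study names for skin T cells, and the tested members of smallest p in each list. Ptprc, Cd163, Cd14, Tyrobp and the genes of the score by course term were chosen after their values were seen.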

Additional observations from a re-analysis of the deposited data

Results flagged for a closer look

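In 9 genes the log2 ratio of high over low score differed between flare and first lesions by a score by course term in edgeR (flare minus first lesions). It was positive for C1qa (3.27, adjusted p = 0.0410), Ccl6 (3.17, adjusted p = 0.0410), Trem2 (3.27, adjusted p = 0.0486), Fcgrt (3.03, adjusted p = 0.0486) and Csf1r (2.97, adjusted p = 0.0490). It was negative for Lif (-5.53), Clu (-4.22) and Muc1 (-4.52), each with an adjusted p of 0.0410, and for Cxcl15 (-4.07, adjusted p = 0.0486). For Lif, Muc1 and Cxcl15 the low score sample at first lesions was below the limit, so the sizes of these 3 differences are fitted values against background. The term rests on 1 low score sample at first lesions and 1 high score sample at flare, and the latter is the only skin sample of experiment 2. The part of depth, experiment and marker genes in these differences was not tested. Groups of 3 samples were too small to test for a sample far from the others.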

How the results depend on the processing

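No paired analysis was possible because the replicate numbers were given in accession order and pair no samples, and the course, which crosses the sides, was used as a covariate. Scaling by Cd3 chain genes was not run because these were at or near the limit. The count of genes that pass stayed at 0 with TMM, DESeq2 size factors, total counts, genes above the limit in all 6 samples, limma on log2 scaled counts, voom, background subtraction, course as covariate, the score as a number, the mouse 1 samples added, experiment 1 alone, an adjusted p under 0.1 and the adjusted t-test of the methods. It was 81 without the filter on low counts (all lower at high score), 14 with DESeq2's Wald test, 1 (Mx1) with all 12 samples, 7 at an unadjusted p under 0.01, 39 at an unadjusted p under 0.05 with a fold of at least 1.5, and 23 by the methods' t-test, unadjusted. Leaving out 1 sample gave 0 to 2 genes, with 2 only without mouse 1 at first lesions. Depth limits what can be called, as 136 of the 277 genes were not above the limit in all 6 samples.

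Genes without overlap numbered 47 with housekeeping scaling (2 higher, 45 lower), 47 with TMM (34 and 13), 40 with DESeq2 size factors (23 and 17), 35 with total counts (20 and 15) and 29 after background subtraction (20 and 9). With 1 sample left out there were 52 to 122, with 110 without mouse 1 at first lesions, 72 without mouse 2, 86 without mouse 6 and 122 without mouse 12, where fewer samples must stay apart. The median log2 fold change over genes was 0.013 with TMM, -0.035 with DESeq2 size factors, -0.023 with total counts, -0.90 without the filter, -0.11 after background subtraction, and -0.73 to -0.29 with 1 sample left out (-0.29 without mouse 3). The score by course term passed in 62, 63 and 65 genes with TMM, DESeq2 size factors and total counts, in 0 of the genes above the limit in all 6 samples, in 4 with limma and 22 after background subtraction, and in 0 with any 1 of 4 samples left out (the other 2 cannot be spared). The causes were not tested.

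Of 1265 fitted values of 65 named genes, 66 changed sign, and 22 passed. Batf and Il1rap entered the test through the high score samples alone. They are listed below without a value, and their sign is not read. Under TMM the genes that changed sign were Irf5 (0.070), Cd44 (0.54), Itgb1 (0.39), Il1rap (0.024), Blnk (0.24), C1qa (0.37) and Trem2 (0.33). Under DESeq2 size factors they were Irf5 (0.021), Cd44 (0.49), Itgb1 (0.34), Blnk (0.18), C1qa (0.30) and Trem2 (0.26), and under total counts 0.063, 0.51, 0.34, 0.19, 0.32 and 0.27 for the same 6 genes. After background subtraction they were Irf5 (0.79), Cxcl9 (0.14), Icam1 (0.18), Cd44 (0.10), Batf (0.53), Cfd (0.54), Il1rap (1.00), S100a8 (0.00764), Blnk (0.19) and Csf1r (-0.13). With voom they were Irf5 (0.27), Cxcl9 (0.24), Cd44 (0.081) and Csf1r (-0.23), with limma Csf1r (-0.24) and Fcgrt (-0.045), and with course as covariate Cd44 (0.015) and Itgb1 (0.11). With the score as a number S100a9 (-0.12), Csf1r (-0.28) and Fcgrt (-0.17) turned, with the mouse 1 samples added S100a9 (-0.19) and C1qa (0.075), and with experiment 1 alone S100a9 (-0.13), Csf1r (-1.13), Fcgrt (-0.82) and Cd163 (-0.087). With 1 sample left out the range crossed 0 for C1qa (-1.12 to 0.46), Ccl6 (-1.15 to 0.33), Cd163 (-0.087 to 0.93), Cd44 (-0.18 to 0.14), Csf1r (-1.13 to 0.92), Cxcl9 (-1.40 to 0.28), Fcgrt (-0.82 to 0.90), Irf5 (-0.77 to 0.52), Itgb1 (-0.43 to 0.058), S100a8 (-0.96 to 0.64), S100a9 (-0.44 to 0.71) and Trem2 (-1.20 to 0.41).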
